A study of Mus musculus with 25 samples.

Results

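Integrins and laminins, the cell-surface receptors and the matrix proteins by which cells hold on to basement membranes, were followed in dorsal root ganglia of 25 BXD mouse strains. The genes were all rows whose symbol begins with Itga, Itgb, Lama, Lamb or Lamc followed by a chain number or letter, without Itgam and the integrin-binding protein genes, and with a mean of at least 10 scaled counts. This gave 37 of the 16220 genes in the table: 16 alpha subunits, 9 beta subunits, 11 laminin chains and Itgbl1, a secreted relative of the beta subunits that is not itself a receptor. Every gene that matched by name also passed the minimum mean. The lowest was Lamb3 at 16.5 ± 9.31 (SD, n = 25).

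The BXD strains are recombinant inbred lines from C57BL6/J and DBA2/J mice, and each carries, at nearly all loci, 2 copies of the same parental allele. Mice of all strains were 8 weeks old, and the labels name no treatment and no sex. The 9 RwwJ strains were BXD44, BXD48, BXD55, BXD60, BXD68, BXD73, BXD77, BXD87 and BXD89. The 16 TyJ strains were BXD1, BXD2, BXD5, BXD6, BXD9, BXD11, BXD13, BXD14, BXD15, BXD16, BXD21, BXD28, BXD34, BXD36, BXD40 and BXD42. The ending of the strain name is a laboratory code and the only labelled difference between the groups. With 1 library per strain, genotype, animal, dissection and library cannot be told apart, and p-values measure differences against the spread between strains.

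Integrins are pairs of an alpha and a beta subunit. They bind matrix or other cells outside and the actin skeleton inside, and the pairing sets the ligand. Laminins are trimers of an alpha, a beta and a gamma chain. Schwann cells, the glia of peripheral nerve, surround each unit of axon and glia with a laminin-rich basal lamina, and loss of their laminins or laminin receptors impairs sorting and myelination of axons in mice. Blood vessels and the perineurium, the sheath around nerve bundles, have basement membranes of their own, and the beta-2 and beta-7 integrins belong to white blood cells.

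Scaled counts are read counts per gene that the authors brought to a common upper quartile. Totals ran from 24637919 to 26860283 per library. The spacing of the low values gave an estimate of depth in 19 libraries, with a median of 22.9 M reads and a highest of 40.1 M. At these depths the share of the variance between strains owed to counting had a median of 4.81% over these genes and was 28.5% for Itga2. The 12 pan-neuronal markers were all measured and summed to 332276 to 421152 scaled counts in RwwJ and 331566 to 459191 in TyJ. No other tissue was set beside them, so these sums do not test the identity of the tissue. The spinal cord marker score (mean log2) was highest in BXD48, at 1.79 above the next strain. Results resting on BXD48 are therefore also given without it. The score was not high in BXD48 alone. It was 9.58 in BXD48, 7.79 in BXD6, 7.61 in BXD44, 7.46 in BXD89 and 7.27 in BXD77, and lowest in BXD73 at 1.89.

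Among the receptors, Itgb1 dominated. Itgb1 encodes the beta-1 subunit, which pairs with most alpha subunits that bind laminin, collagen or fibronectin. It had 2580 scaled counts per kilobase of exon, the scale used for all comparisons between genes, and 10528 ± 998 scaled counts in all (SD, n = 25). The next beta subunits were Itgb5 at 399 per kilobase, a partner of the alpha-v subunit, and Itgb4 at 333, which pairs with the alpha-6 subunit only. Itgb8, which with alpha-v activates latent TGF-beta, had 167, and Itgbl1 had 162. The leukocyte subunits Itgb2 and Itgb7 lay at 90.8 and 80.0 and Itgb3, the subunit of platelets and of bone-resorbing cells, at 68.9. Itgb2l and Itgb6, an epithelial subunit, lay lowest at 9.74 and 7.41.

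Laminin-binding subunits led the alpha chains. Itga7, the subunit of muscle and of Schwann cells, had 452 ± 57.1 scaled counts per kilobase (SD, n = 25), Itga3 had 364 ± 41.4 and Itga6 had 177 ± 24.5. The intervals of 1 SD around Itga7 and Itga3 overlapped, and those around Itga3 and Itga6 did not. These intervals give the spread between strains. They ignore that the genes were measured in the same libraries, so an overlap does not show that levels are alike. Itgav (81.1) and Itga5 (59.9), which bind fibronectin and other RGD proteins, came next. The collagen receptors were Itga11 (43.5), Itga10 (33.7), Itga1 (8.27) and Itga2 (6.10). Of the Itga10 exon sequence 33.5% is shared with another annotated gene, Gm42957, and the kit does not mark strand, so the Itga10 level is uncertain. The remaining alpha chains were Itga9 (43.5), Itga2b of platelets (34.2), the leukocyte chains Itgal (17.7), Itga4 (17.4), Itgax (8.50) and Itgae (5.75), and Itga8 (5.40), a subunit of smooth muscle and mesenchyme.

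**Figure D1:**
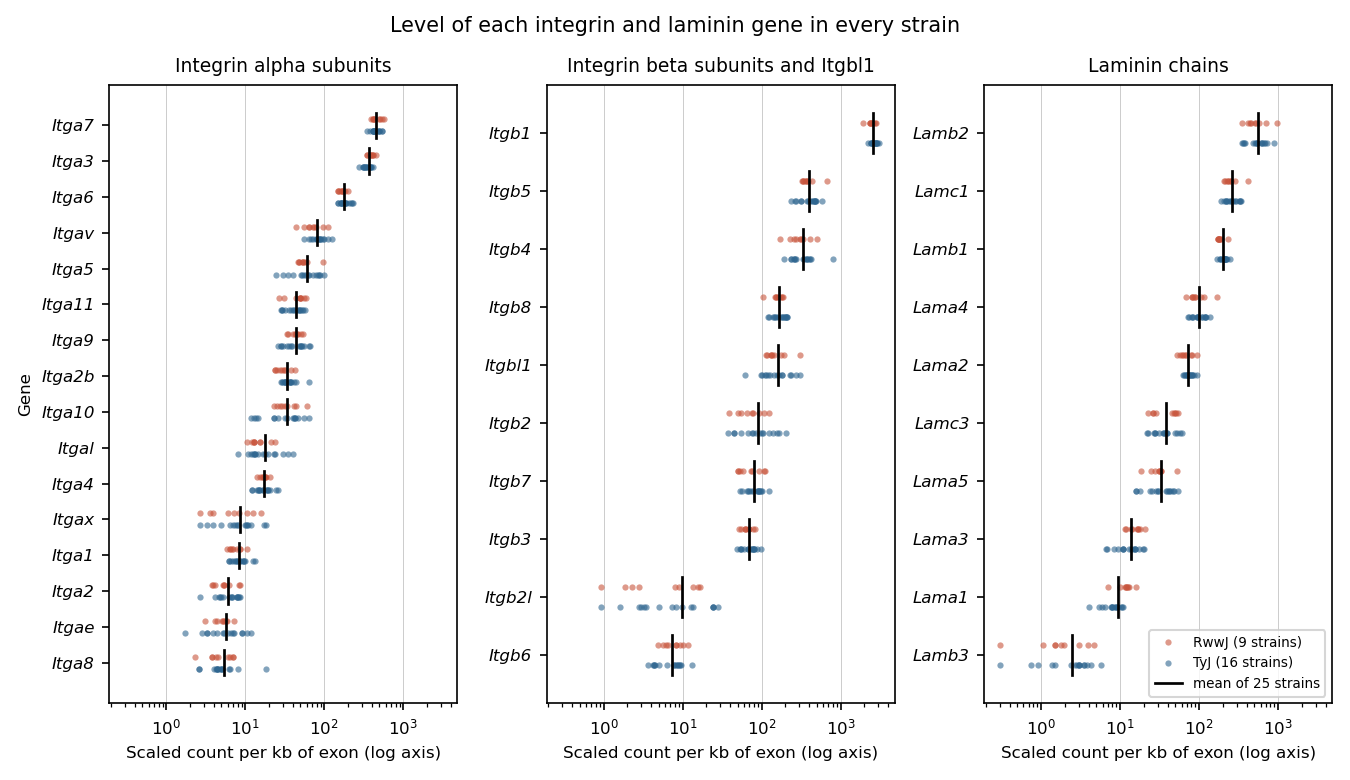
Scaled counts per kilobase of exon on a log axis for the 16 alpha subunits, the 9 beta subunits with Itgbl1 and 10 laminin chains, with a dot for each RwwJ or TyJ strain and a bar at the mean of 25 strains. Itgb1 lies at 2580 per kilobase, above all others, and Lamb3 lowest at 2.5.

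For the laminin chains, Lamb2 at 551 ± 160 per kilobase, Lamc1 at 261 ± 53.2 and Lamb1 at 199 ± 20.8 (SD, n = 25) were the most abundant beta and gamma chains. The alpha chains that carry the receptor-binding end lay lower. Lama4, the chain of vessels and of Schwann cells, had 99.8, and Lama2, whose loss causes muscular dystrophy with neuropathy, had 73.2. Lama5, found in vessels and in perineurium, had 33.1. Lamc3 (38.1), Lama3 (13.9), Lama1 (9.45) and Lamb3 (2.5) were low. Lama3 and Lamb3 encode chains of the laminin of epithelial hemidesmosomes.

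The genes varied between strains more often than genes at large. Between its 10th and its 90th percentile over strains a level differed at least 2-fold for 17 of 37 genes, against 23.9% of the 16152 genes tested, and the median SD was 0.40 against 0.25 on the log2 scale. Low counts widen this ratio, so the levels were split. Among genes with a mean of 100 or more, 9 of 29 integrin and laminin genes reached 2, against 11.1% of 12460. Below that, all 8 did, against 67.1% of 3692. These shares are a description with no test.

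The steadiest was Itgb1, with a lowest value of 7888 in BXD48, a median of 10438 and a highest of 12395 in BXD34 (SD 0.14 on the log2 scale). Lamb1 (SD 0.15), Itga3 (0.17), Itga7 (0.18), Itga6 (0.19) and Lama2 (0.21) followed. The 6 widest were Itgb2l, Lamb3, Itgax, Itga10, Itgb2 and Itgae. Itgb2l ran from 4 in BXD28 and BXD73 through a median of 35 to 121 in BXD1 (SD 1.42), Lamb3 from 2 through 18 to 38 (0.98) and Itgax from 13 through 38 to 89 (0.78). Itga10 ran from 62 through 163 to 336 (0.68), Itgb2 from 113 through 239 to 621 (0.67) and Itgae from 8 through 25 to 54 (0.61).

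No gene of the group lay at separate levels. The largest step between neighbouring strains, with at least 5 strains on each side, reached 0.25 of the whole range in 0 of 37 genes, against 1.72% of all genes tested. The largest such share was 0.16, for Itga11, whose 6 lowest strains ended at 164 and whose others began at 186. Extreme values lay in some strains more often than in others. How often each strain is extreme over all genes was not counted. BXD40 had the lowest value of 6 genes and BXD21 of 5. BXD5 had the highest value of 8 genes, among them Itgb4, Itgbl1, Itgav, Itga9, Itga1 and Itga8, and BXD55 of 6, among them Lamb2, Itgb5, Lamc1, Lama4 and Itga11. BXD14 had the highest Itgb2, Itgal, Itga4 and Itga2b. Itga8 had 137 scaled counts in BXD5 and 59 in the next strain, BXD15.

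The members were then set against marker scores of the cell types of the ganglion and its surroundings, each score being the mean log2 level of a fixed marker list. For each score a limma fit was made across all genes, and p-values were adjusted over all of them (Benjamini-Hochberg, 0.05). In bulk tissue, fewer cells of a type and less RNA per cell cannot be told apart, and because values are relative, more RNA of 1 cell type lowers the values of the others. Each of the 37 genes was set against 10 scores.

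Against the pan-neuronal score, 14 of 37 genes were lower in strains with more neuronal RNA and 0 were higher, while 9.29% of all genes were lower and 5.31% higher. Among the 14 were the laminin chains Lamb2, Lamc1, Lama5, Lama4 and Lamb3, and Itga5, Itgb5, Itga10, Itgb4, Itgbl1, Itga9, Itga1 and Itga6. The score itself varied little, spanning 1.33-fold between BXD55 and BXD36. Lamb2, the beta chain of mature vessel and nerve basement membranes, had a lowest value of 2099 in BXD21, a median of 3159 and a highest of 5868 in BXD55, the strain of lowest neuronal score. Its level fell by 0.34 ± 0.04 (log2, SE) per SD of the score (limma adjusted p = 9.97e-06), with r = -0.84 (permutation p = 1e-05, the smallest 100000 permutations can give) and rho = -0.80 (1e-05). Without BXD55 and BXD36, the strains farthest from the median score, r was -0.78. Within the RwwJ strains r was -0.77 and within the TyJ strains -0.89.

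Itga5, the classical fibronectin receptor subunit, ran from 122 in BXD21 through 272 to 487 in BXD34, with r = -0.81 (permutation p = 1e-05) and rho = -0.81 (1e-05). Itgb5 ran from 845 in BXD21 through 1359 to 2358 in BXD55, with r = -0.80 (permutation p = 1e-05) and rho = -0.77 (3e-05). Itgb1 showed little of this pattern, with r = -0.22 (permutation p = 0.289, limma adjusted p = 0.52). Over all 14 genes r ran from -0.84 to -0.54 and was -0.78 to -0.47 without the same 2 strains, -0.80 to -0.50 within RwwJ and -0.90 to -0.64 within TyJ. The call for Itga6 was lost without any of BXD1, BXD5, BXD36, BXD40, BXD55, BXD60 or BXD73 (limma adjusted p up to 0.0829 with 1 of them left out). Without BXD21, BXD36 and BXD40 together the calls for Itga6 (limma adjusted p = 0.11) and Lamb3 (0.0628) were lost.

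**Figure D2:**
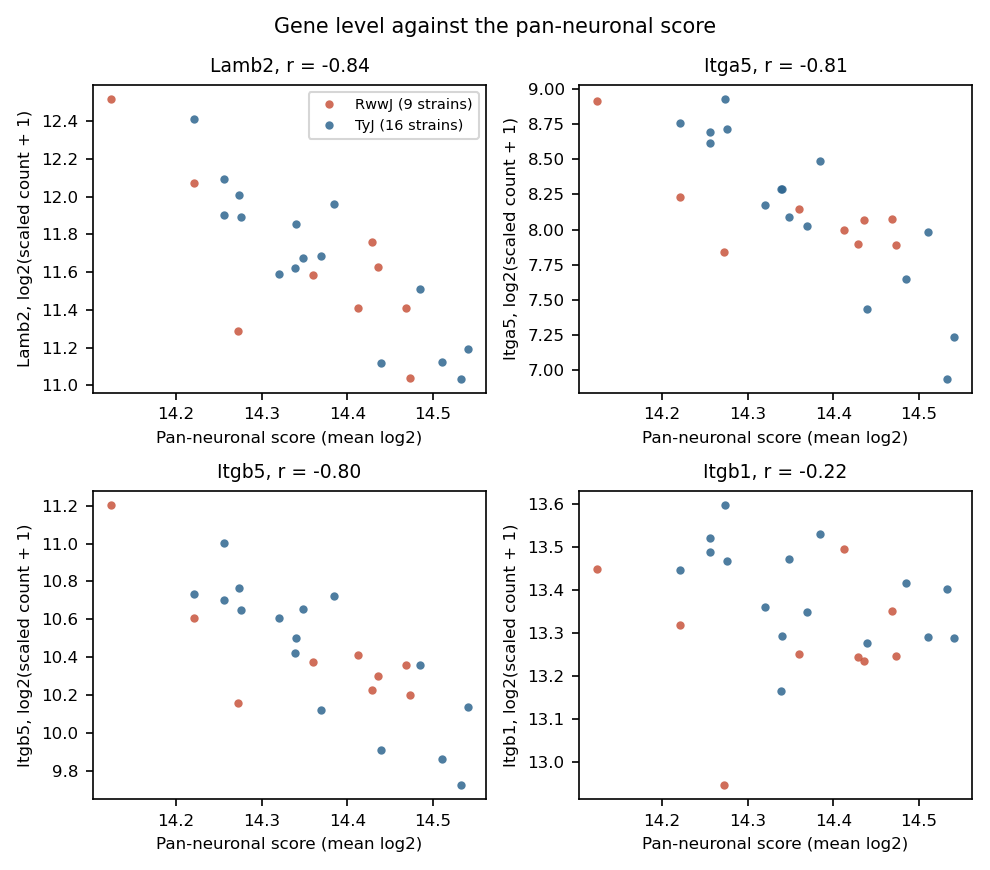
Log2(scaled count + 1) of Lamb2, Itga5, Itgb5 and Itgb1 against the pan-neuronal score, with a dot for each RwwJ or TyJ strain. The first 3 decline with the score (r from -0.84 to -0.80), and Itgb1 lies nearly flat (r = -0.22).

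The promoters of these 4 genes are shown because Lamb2, Itga5 and Itgb5 were lower with the pan-neuronal score and Itgb1 was not called with it. With these 3 genes Itgb1 itself had r = 0.47, 0.45 and 0.55. RefSeq gives a promoter window, 250 bases before to 50 after the start, for 24 of the 37 genes in GRCm38.p6, a later build than that of the deposited table. Capitals mark matches, on either strand, to 5 motifs. The GC box, bound by Sp factors, was searched as GGGCGG. The TATA box of the core promoter was searched as TATAAA. The site of the growth-responsive factor AP-1 was searched as TGANTCA. For the TEAD factors, which act with Yap1, the search used GGAATG. The core of PU.1, a factor of myeloid cells, was searched as GAGGAA. In Itgb1 a PU.1 core and a TEAD site overlap in 1 run of capitals.
Lamb2 (chr9:108479612-108479911, plus strand): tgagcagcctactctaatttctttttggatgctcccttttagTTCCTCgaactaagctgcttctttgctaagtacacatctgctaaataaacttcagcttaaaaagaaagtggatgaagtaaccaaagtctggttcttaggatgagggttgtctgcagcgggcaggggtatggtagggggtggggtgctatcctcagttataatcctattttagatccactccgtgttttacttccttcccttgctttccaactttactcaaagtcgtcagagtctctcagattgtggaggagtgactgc
Itga5 (chr15:103366742-103367041, minus strand): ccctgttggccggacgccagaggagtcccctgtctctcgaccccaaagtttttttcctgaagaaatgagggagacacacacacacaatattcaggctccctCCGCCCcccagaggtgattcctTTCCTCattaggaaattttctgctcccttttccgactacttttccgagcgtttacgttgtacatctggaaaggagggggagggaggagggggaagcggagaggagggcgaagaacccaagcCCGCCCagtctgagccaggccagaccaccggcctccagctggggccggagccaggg
Itgb5 (chr16:33829415-33829714, plus strand): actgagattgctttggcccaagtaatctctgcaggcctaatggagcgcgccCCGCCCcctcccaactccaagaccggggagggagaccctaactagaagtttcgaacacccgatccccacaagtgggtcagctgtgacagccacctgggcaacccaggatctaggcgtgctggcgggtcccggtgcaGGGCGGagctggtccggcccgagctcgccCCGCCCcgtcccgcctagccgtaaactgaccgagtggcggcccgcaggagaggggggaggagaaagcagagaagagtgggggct
Itgb1 (chr8:128685404-128685703, plus strand): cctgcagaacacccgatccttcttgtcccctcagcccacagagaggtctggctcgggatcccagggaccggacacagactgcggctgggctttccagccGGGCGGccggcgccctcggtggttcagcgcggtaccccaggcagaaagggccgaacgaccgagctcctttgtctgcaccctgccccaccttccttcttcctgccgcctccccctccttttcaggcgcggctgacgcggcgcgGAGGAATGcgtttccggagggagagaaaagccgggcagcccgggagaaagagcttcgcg
The GC box was found 2 times in Itga5, 3 times in Itgb5 and 1 time in Itgb1, and not in Lamb2, whose window is 44% GC with 4 CpG, against 27 CpG in Itgb1. Over the 27 windows of the group, 12 held a GC box, against 35.7% of 32851 RefSeq windows of the same length. The TATA box was in 0 of 27, against 13.6%, and the PU.1 core in 14, against 28.3%. The AP-1 and TEAD sites were in 3 each, against 7.81% and 14.7%. A match of letters is a description and shows no binding.

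Against the fibroblast score, 16 of 37 genes were higher in strains with more fibroblast RNA and 1 was lower, against 10.4% and 5.64% of all genes. Lamc1, the gamma chain of most laminins, was closest to it. Lamc1 ran from 1571 in BXD40 through a median of 2079 to 3441 in BXD55, and rose by 0.23 ± 0.03 (log2, SE) per SD of the score, with r = 0.83 (permutation p = 1e-05), rho = 0.80 (1e-05) and limma adjusted p = 1.84e-05. Without BXD55 and BXD1 r was 0.75, within RwwJ 0.92 and within TyJ 0.77. Other laminins called included Lamb2, Lama4 and Lama2. Among the integrins they were Itga9, Itga5, Itga1, Itgb5, Itgb7, Itgb4, Itga6, Itga11, Itgb2 and Itgax, and Itgbl1 was called too. Itga7 was the gene that fell, by 0.10 ± 0.03 per SD of the score (r = -0.53, permutation p = 0.00676, limma adjusted p = 0.0365).

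The fibroblast score was itself tied to others. It correlated with the pan-neuronal score at r = -0.68 (permutation p = 0.00016, adjusted 0.00144 over 45 pairs of scores) and rho = -0.64 (0.00065), or r = -0.64 without the 2 strains farthest from the median, -0.82 within RwwJ and -0.63 within TyJ. It correlated with the endothelial score at r = 0.76 (permutation p = 3e-05, adjusted 0.000337), rho = 0.70 (0.00012) and r = 0.73 without the farthest 2 strains. With the mural and the macrophage score its r was 0.74 each (permutation p = 3e-05 and 2e-05), and rho was 0.77 and 0.58. The endothelial and mural scores correlated at r = 0.82 (permutation p = 1e-05). The calls against these scores therefore share strains and are no separate evidence. Leaving out BXD1 cut the fibroblast calls to 11, those that ended including Itgax, Itga6, Itgb2, Itga7 and Itga11. Itgax also ended without BXD6, BXD16, BXD34, BXD42, BXD55, BXD73 or BXD87, Itgb2 without BXD16 or BXD73, and Itga11 without BXD15, BXD16 or BXD55. Itga7 ended without BXD13, BXD15, BXD55, BXD60, BXD73 or BXD87.

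For vessels, 12 genes were higher with the endothelial score and 1 lower, against 8.14% and 3.54% of all genes. With the score of mural cells, the pericytes and smooth muscle of vessels, 11 were higher and 3 lower, against 8.26% and 4%. Itga1, a collagen receptor of smooth muscle and vessels, was highest in r with both: r = 0.66 with the endothelial (permutation p = 0.00027) and 0.74 with the mural score (permutation p = 4e-05). Itga8, a smooth muscle subunit, was called with the mural score alone of the 10, at r = 0.73 and rho = 0.63, and r was 0.54 without BXD5 and BXD15. Itga3 was lower with both scores (r = -0.62 and -0.64, permutation p = 0.001 and 0.00078), and in both fits the call ended without BXD15 (limma adjusted p = 0.115 and 0.0572). The endothelial call for Itga3 was also lost with the RwwJ or TyJ group as a covariate and on ranks (limma adjusted p up to 0.0561), and the mural call on ranks (0.0592). Itga7 and Lama1 were the others that were lower with the mural score. The call for Lama1 ended without any of BXD5, BXD15, BXD60, BXD68 or BXD73, that for Itga7 without any of 10 strains. Of the genes that were higher with the endothelial score, Itga1, Itga5, Itga9, Itgb7, Lamb2 and Lamc1 held without each strain in turn. The calls for Lama4 and Itgb5 ended without BXD15, for Itgb4 without BXD73, for Itgbl1 without BXD1, for Lama2 without BXD1, BXD60 or BXD73, and for Itga6 without any of 6 strains. With the mural score, those for Itgb7 and Lamc1 ended without BXD1 and that for Itgbl1 without BXD1 or BXD5.

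**Figure D3:**
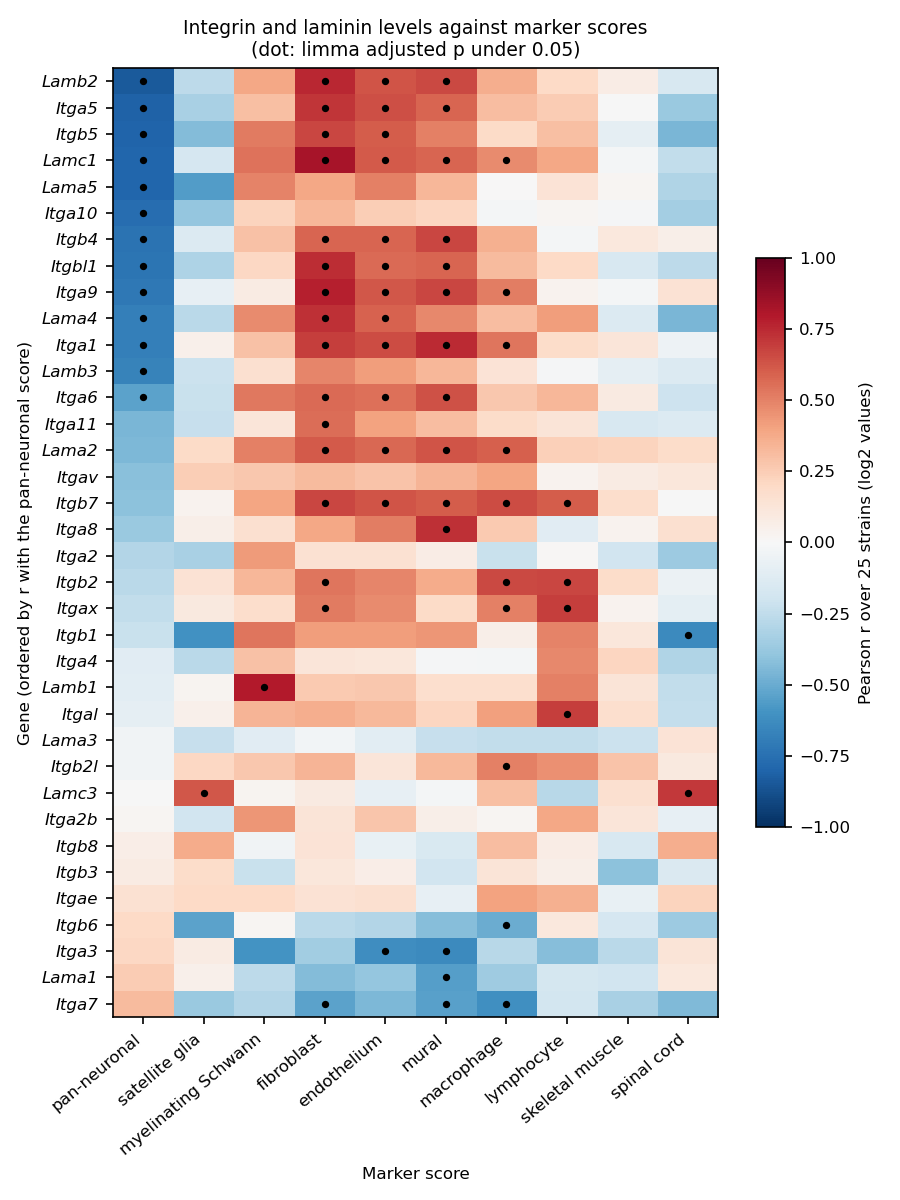
Pearson r over 25 strains between each of 36 genes (rows, ordered by r with the pan-neuronal score) and 10 marker scores (columns), from -1 in blue to 1 in red, with a dot where the limma adjusted p is under 0.05. The upper rows, from Lamb2 to Itga6, are blue in the pan-neuronal column and mostly red in the fibroblast and vessel columns.

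Schwann cell markers picked out a single gene. Against the myelinating Schwann score, Lamb1 was higher and none was lower, with 0.558% of all genes higher and 0.229% lower. Lamb1, the beta chain of the Schwann cell laminin, ran from 1670 in BXD34 through 1968 to 2411 in BXD42, the strain of highest Schwann score. It rose by 0.12 ± 0.02 (log2, SE) per SD of the score, with r = 0.79 and rho = 0.79 (permutation p = 1e-05 for both, limma adjusted p = 0.00314), and with r = 0.73 without BXD42 and BXD68, 0.84 within RwwJ and 0.66 within TyJ. On ranks the adjusted p was 0.0697. The laminin-binding subunits of Schwann cells did not pass: Itga6 had r = 0.53 (limma adjusted p = 0.18), Itgb4 0.29 (0.54) and Itga7 -0.30 (0.55). Their gamma and alpha chains Lamc1 and Lama2 had r = 0.54 (0.15) and 0.50 (0.21).

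Some of the leukocyte integrins were higher with leukocyte markers. Of 8 lymphocyte markers listed 6 were measured, and their sum was low, from 222 scaled counts in BXD11 to 1817 in BXD1. The lymphocyte score (mean log2) of BXD1 lay 0.76 above that of the next strain. Against the lymphocyte score, Itgal, Itgax, Itgb2 and Itgb7 were higher (r from 0.61 to 0.69), 4 of 37 against 3.57% of all genes, and none was lower, against 1.99%. Their products serve leukocyte adhesion to vessel walls or to gut and skin. The call for Itgb7 ended without BXD1 or BXD55, and with the RwwJ or TyJ group as a covariate (limma adjusted p = 0.05955). Itgb7 was also not particular to this score. Its r was 0.61 with the lymphocyte, 0.67 with the fibroblast, 0.65 with the macrophage, 0.63 with the endothelial and 0.61 with the mural score. The leukocyte chains Itga4 (r = 0.48, limma adjusted p = 0.11) and Itgae (r = 0.35, limma adjusted p = 0.25) did not pass. Against the macrophage score 8 of 37 genes were higher, against 15% of all genes, and 2 were lower, against 11.9%. Itgb2 had the highest r with it, 0.66 (permutation p = 0.00027), and Itga7 the lowest, -0.62 (permutation p = 0.00115). Itgal (limma adjusted p = 0.0938), Itgae (limma adjusted p = 0.12) and Itga4 (limma adjusted p = 0.95) did not pass with the macrophage score. Of the 10 calls, those of Itgb2, Itga7, Lama2 and Itgb7 held without each strain in turn. The others were Itgb2l, Itga1, Itga9, Itgax, Lamc1 and Itgb6. Leaving out BXD1 or BXD73 ended 5 of these and leaving out BXD60 ended 4.

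The remaining scores moved with few members. Lamc3, the gamma chain that neural tissue and retina express, was higher with the spinal cord score (r = 0.70, permutation p = 0.00014, rho = 0.74). It ran from 133 in BXD34 through 222 to 373 in BXD11 and kept r = 0.75 without BXD48 and BXD6. It was also higher with the satellite glia score (r = 0.62), which correlated with the spinal cord score at r = 0.64 and rho = 0.63, and that call ended without any of 11 strains. Itgb1 was lower with the spinal cord score (r = -0.63), a call that ended without BXD48 (limma adjusted p = 0.13). The background was 3.8% higher and 2.26% lower for the spinal cord score, 1.38% and 1.11% for satellite glia. With the skeletal muscle score no gene of the group was called (limma), against 0.558% of all genes higher and 0% lower.

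Whether partners rose and fell together was asked with the level of an obligate or common partner as the covariate. Itgb2 pairs in leukocytes with the products of Itgal and Itgax. Both passed, 2 of 2, against 9.8% of all genes that were higher and 6.07% that were lower with Itgb2. Itgal ran from 54 in BXD6 through 96 to 266 in BXD14, which also had the highest Itgb2. Its r with Itgb2 was 0.89 (permutation p = 1e-05) and rho 0.90, with r = 0.85 without BXD14 and BXD40, 0.71 within RwwJ and 0.93 within TyJ (limma adjusted p = 2.84e-07). For Itgax r was 0.74 (permutation p = 8e-05). Of the 34 members that are not listed partners, 3 were also higher with Itgb2 and none was lower. These were Itgb7 (r = 0.72, limma adjusted p = 0.0013), Itgb2l (r = 0.58, limma adjusted p = 0.0163) and Itgae (r = 0.52, limma adjusted p = 0.044). Itgb7 was thus nearly as close to Itgb2 as Itgax was.

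Itga6, the only partner of Itgb4, was higher in strains with more Itgb4, as were many members that do not pair with it. Itga6 ran from 1331 in BXD40 through 1536 to 2088 in BXD42, and Itgb4 from 1206 in BXD73 through 2194 to 5668 in BXD5. Their r was 0.79 and rho 0.78 (permutation p = 1e-05 for both), and r was 0.74 without BXD5 and BXD73, 0.83 within RwwJ and 0.79 within TyJ (limma adjusted p = 0.000631; 4.97% of all genes were higher and 1.27% lower with Itgb4). The alpha-6 and beta-4 pair is a laminin receptor of perineurium and of Schwann cells. Itga6 rose by 0.15 ± 0.03 (log2, SE) for 1 SD of Itgb4, which was 0.47. Of the 35 other members 14 were also higher with Itgb4 and none was lower. Lamb2 (r = 0.88) was closer to Itgb4 than Itga6 was, and Itgbl1 (0.78) and Itga1 (0.77) were about as close. Itgb4 and Itga6 were both lower with the pan-neuronal score and higher with the fibroblast, endothelial and mural scores, and the part of these scores in their relation was not tested.

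Of the 8 alpha and beta laminin chains, 5 were higher with Lamc1, and none was lower, against 9% and 4.07% of all genes. Lama4 (r = 0.89, rho = 0.88) and Lamb2 (r = 0.88, rho = 0.90) were closest, each with a permutation p of 1e-05, and Lama5, Lama2 and Lamb3 each had r = 0.67. Lama4 ran from 828 in BXD48 through 1141 to 2051 in BXD55. Lamb1 was not called (r = 0.46, permutation p = 0.0203, limma adjusted p = 0.11), nor were Lama1 (r = -0.36) and Lama3 (0.03). Of the 28 members that are not alpha or beta laminin chains, 10 were also higher with Lamc1 and none was lower. Itgb5 (r = 0.88), Itga5 (0.81), Itgbl1 (0.80) and Itga6 (0.77) were closer to Lamc1 than Lama5, Lama2 and Lamb3 were, so the relation was not limited to laminin chains. The 8 calls of partners with Itgb2, Itgb4 and Lamc1 held without each strain in turn. Those of the other members were not examined in this way.

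The widely shared subunits gave no call. With Itgb1 as the covariate, 0 of 12 alpha partners passed in limma, against 0.353% of all genes higher and 1.5% lower, and 3 had a permutation p of r under 0.05. Itga6 had r = 0.59 (permutation p = 0.00188, limma adjusted p = 0.0659) and Itga5 had r = 0.45 (permutation p = 0.0251, limma adjusted p = 0.21). Itga3 had the opposite sign, with r = -0.52 (permutation p = 0.00748, limma adjusted p = 0.14). For Itga7 r was 0.05. With Itgav, 0 of 5 beta partners passed in limma and 0% of all genes did. Itgb8 had r = 0.39 and Itgb5 0.30, while Itgb6 had -0.44 (permutation p = 0.0286).

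**Figure D4:**
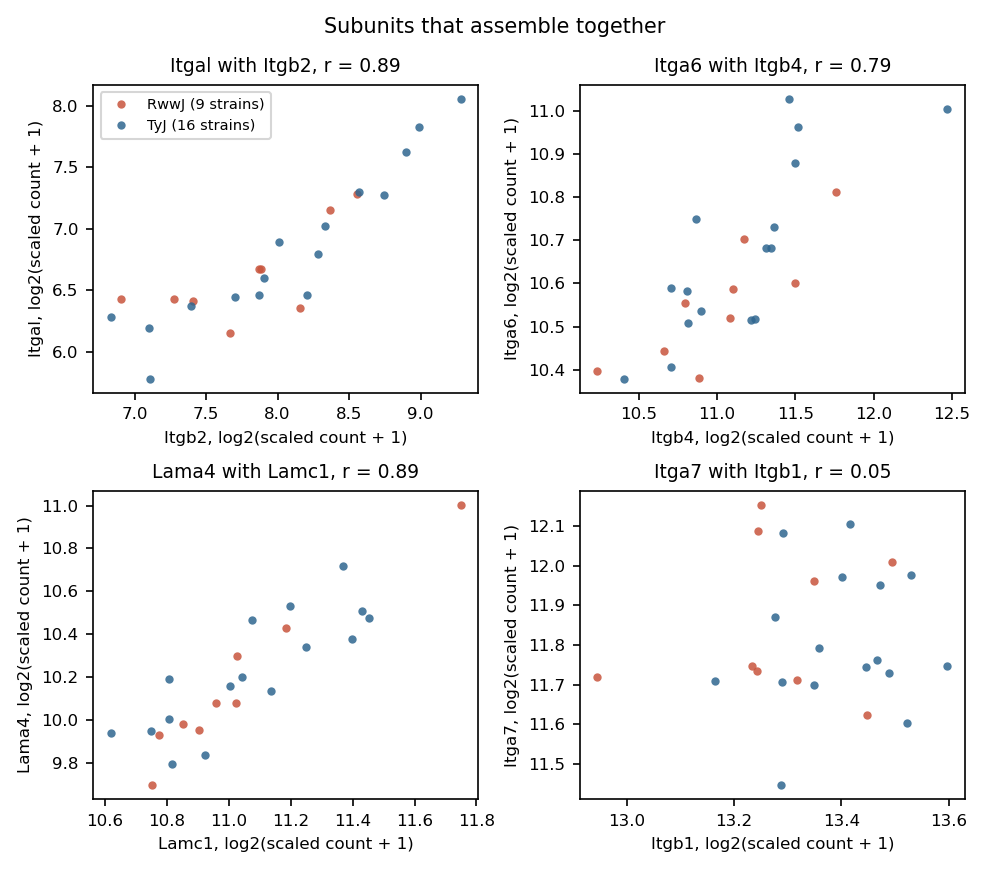
Log2(scaled count + 1) of an alpha subunit or laminin chain (vertical) against its partner (horizontal), with a dot for each RwwJ or TyJ strain. Itgal with Itgb2, Itga6 with Itgb4 and Lama4 with Lamc1 rise together (r = 0.89, 0.79 and 0.89), and Itga7 with Itgb1 does not (r = 0.05).

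Other genes of the pathway were taken from fixed lists. Among 11 partners of laminin in the basement membrane, 7 were lower with the pan-neuronal score and 1 was higher, against the same 9.29% and 5.31%, and 8 were higher with the fibroblast score and 1 lower, against 10.4% and 5.64%. Nid1, which links laminin to collagen, had r = 0.85 with the fibroblast score, and the vessel and nerve collagens Col4a1 and Col4a2 had 0.71 and 0.65. Bcam, a laminin receptor outside the integrins, ran the other way, with r = 0.83 for the pan-neuronal and -0.60 for the fibroblast score. Of 13 other integrin ligands, 9 were lower with the pan-neuronal score and 10 higher with the fibroblast score. Fn1 (fibronectin) and Vtn (vitronectin) had r = -0.79 and -0.87 with the pan-neuronal score. Of the 32 adaptors inside the cell, 2 were higher and 3 lower with the pan-neuronal score, and 8 were higher and 1 lower with the fibroblast score. The lists were not tested against each other. Flna, an actin crosslinker, had r = -0.78 with the pan-neuronal score.

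The RwwJ strains were compared with the TyJ strains in a limma fit over all genes. No integrin or laminin gene passed after adjustment. The count was 0 of 37, against 0% of 16152 genes, and at an unadjusted p under 0.05 it was 5 of 37 (2 higher and 3 lower in RwwJ), against 15.1% of all genes. The median difference was -0.08 on the log2 scale, against -0.0047 over all genes. In RwwJ 25 genes of the group were lower and 12 higher, against 8270 and 7882 of all genes. Among pathway genes, 0 of 11 basement membrane partners, 0 of 13 other ligands and 0 of 32 adaptors passed, with 1, 0 and 2 at an unadjusted p under 0.05. The fibroblast markers, which moved with many of these genes, summed to 83228 to 207562 scaled counts in RwwJ (median 106840) and to 79431 to 217022 in TyJ (median 144036). Their part in the difference was not tested.

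Values follow for the 6 genes whose p was smallest. Lama1, a chain of early embryonic and of brain basement membranes, had 68, 116 and 153 scaled counts in RwwJ (lowest, median and highest) and 39, 80.5 and 107 in TyJ. Of the RwwJ strains 7 of 9 lay above every TyJ strain, and the groups overlapped through the other 2. The means were 114 ± 22.9 in RwwJ and 78.8 ± 18.6 in TyJ (SD, n = 9 and 16), which is 0.55 ± 0.15 on the log2 scale (SE; adjusted p = 0.29 in limma). Over all alternatives its difference ran from 0.48 to 0.63. For Itgb1 below, the unadjusted p was 0.16 without BXD48, where its difference was -0.07. Lamb1 had 1704, 1782 and 2301 in RwwJ and 1670, 2084.5 and 2411 in TyJ, a difference of -0.16 ± 0.06, with 8 of 9 RwwJ strains below the TyJ mean. The Schwann markers with which Lamb1 moved summed to a median of 87949 in RwwJ and of 123136 in TyJ.

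Itga3 had 1983, 2206 and 2588 in RwwJ and 1561, 1983 and 2362 in TyJ, a difference of 0.18 ± 0.06 with 8 of 9 RwwJ strains above the TyJ mean. Itga2b had 129, 158 and 234 in RwwJ and 153, 186 and 347 in TyJ, a difference of -0.26 ± 0.12. The 4 platelet markers measured summed to medians of 275 in RwwJ and 308 in TyJ. Itgb1 had 7888, 9739 and 11541 in RwwJ and 9180, 10878 and 12395 in TyJ (-0.12 ± 0.06), and Itgav had 473, 764 and 1188 in RwwJ and 591, 909.5 and 1348 in TyJ (-0.25 ± 0.13). The limma adjusted p of these 5 genes was 0.29 to 0.37. The groups overlapped in all 37 genes, as in all genes tested, of which 0 of 16152 had groups that did not overlap.

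**Figure D5:**
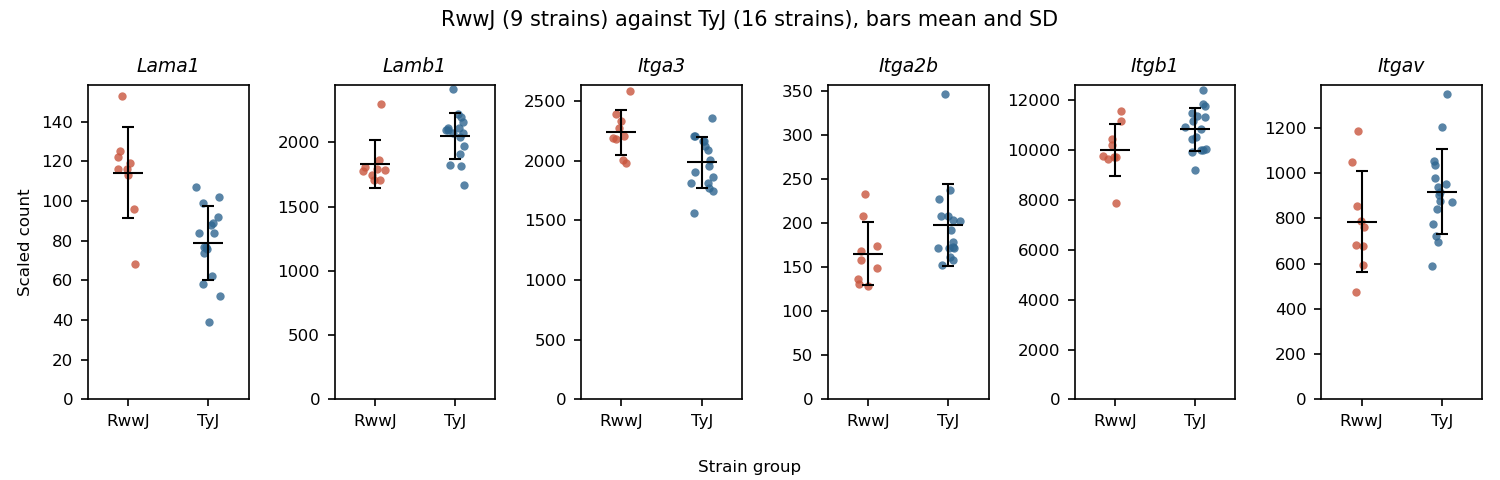
Scaled counts of the 6 genes of smallest p in the 9 RwwJ and the 16 TyJ strains, with a dot for each strain and bars at the mean and SD. Lama1 and Itga3 lie higher in RwwJ and the other 4 lower, all with overlapping groups.

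The genes outside the group whose pattern over the 25 strains was most like that of a member were found by Pearson r of log2 values, as a description without a test, since each is the top of 16152. Itgb2 was closest to Rac2 (r = 0.96), the Rac GTPase of blood cells. Lamb2 was closest to Prelp (0.95), a proteoglycan of connective tissue. Itgb5 was closest to the potassium channel gene Kcnj2 (0.94), Itgb4 to Pear1 (0.93), Itga10 to Afap1 (0.92), Itga1 to Yap1 (0.92), the transcriptional co-activator of the Hippo pathway, and Itgbl1 to the forkhead factor gene Foxd1 (0.92). None of these 7 lay on the chromosome of its partner. A gene beside a member could still be close to it. Heg1, beside Itgb5, had r = 0.90 with it and is named because this was the highest r among the nearby genes examined for all members. Umps, on the other side of Itgb5, had r = -0.03 with it.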

How the data were processed

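RNA of dorsal root ganglia of 25 BXD strains was sequenced, 1 library a strain, with Trizol extraction and the unstranded Illumina TruSeq RNA v2 kit. The builds NCBIM37 and mm9 and the tools HTSeq, TopHat2 2.0.9 and CASAVA 1.8.0 are named, per the submitters' processing notes, with no order. The deposited values are a normalized score: read counts that the authors scaled to a common upper quartile (1478 in every library) and rounded to whole numbers. For the scaling tool and any filter, the sources used here give no name. No count model was fitted.

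Symbols, chromosomes and exon lengths came from GENCODE M21 (GRCm38), which named 15697 of 16220 identifiers. It was used for names, order, the exon lengths behind the values per kilobase and the exon sequence shared between genes. The lengths take in all annotated exons of a gene, and reads were not counted again on this build. In 16152 genes whose mean reached 10, log2(score + 1) was tested in limma 3.58.1 (R 4.3.3, trended prior, Benjamini-Hochberg over all genes, 0.05, two-sided). Fold changes are on that scale, which understates changes of low genes. Members called in any fit, the 6 of smallest p and the 6 of largest SD were named in full, as was the most alike gene of 7 members. The values of 1 member and 1 most alike gene are not reported here, though counts include that member. The fits were tested on simulated data. Permutation p-values used 100000 draws (Python 3.11.15). Alternatives covered pseudocount, filter, scaling, ranks, array weights, group as a covariate and strains left out. The members and lists were chosen with earlier results of these data known.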

Additional observations from a re-analysis of the deposited data

Results flagged for a closer look

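In 6 genes 1 of the 9 RwwJ strains lay far from the other 8, by its gap to the nearest strain as a share of the range (Dixon's rule, log2 scale). Chance singles out about 1 in 20 genes, and 37 were examined. BXD55 was high in 4 of them, with 2301 scaled counts of Lamb1 (next strain 1862), 480 of Itga5 (299), 2358 of Itgb5 (1556) and 3441 of Lamc1 (2326). BXD55 also had the lowest pan-neuronal and the highest fibroblast score, and Itga5, Itgb5 and Lamc1 were called with both. Lamb1 was called with neither of them, but with the myelinating Schwann score. For that score BXD55 was the highest of the RwwJ strains and came next after BXD42 among all strains. BXD48 was low for Itgb1, at 7888 against 9634 in the next strain, and had the highest spinal cord score. BXD60 was low for Itgb8, at 1157 against 1637, and had the highest skeletal muscle score.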

How the results depend on the processing

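No integrin, laminin or pathway gene was called between RwwJ and TyJ under any alternative. Over all genes the count was 0, or 6 with array weights and 3 without BXD48, with a range of 0 to 3 as each strain was left out (1 without BXD34, BXD40, BXD55, BXD60 or BXD87). At an unadjusted p under 0.05, 5 members became 3 without BXD48 and 3 to 7 as each strain was left out (3 also without BXD1, BXD14, BXD16, BXD34, BXD42 or BXD73).

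Member counts within 1.5 times of the main one under every alternative were those for the pan-neuronal, endothelial, mural, lymphocyte and skeletal muscle scores, where leaving out each strain gave 13 to 14, 10 to 16, 10 to 16, 3 to 5 and 0. The fibroblast count of 17 ran from 11 (without BXD1) to 18. The macrophage count of 10 was 6 on ranks and 5 to 10 with strains left out (6 without BXD1 or BXD60, 5 without BXD73). The satellite glia count of 1 was 0 after median-of-ratios rescaling, on ranks or without BXD21, BXD36 and BXD40, 2 without BXD48, 4 with the group as a covariate, and 0 to 3 with strains left out (3 without BXD73, 2 without BXD15 or BXD55). The Schwann count of 1 was 0 on ranks and 2 without BXD21, BXD36 and BXD40. The spinal cord count of 2 was 1 on ranks and without BXD48 and 1 to 2 with strains left out. Of 84 calls with a score or partner, 55 held without each strain in turn and 53 under every alternative, and none changed sign with a strain left out.

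Partners of Itgb1 numbered 1 in place of 0 without BXD21, BXD36 and BXD40 and 0 to 1 with strains left out (1 without BXD28 or BXD87). Partners of Itgb2 numbered 1 with a minimum mean of 50, which removes Itgax. A ratio of at least 2 was reached by 11 members with a minimum mean of 50, 30 with a ratio of 1.5, and 13 to 17 with strains left out. The cause of these shifts was not tested, other than the genes removed. No paired analysis was possible because the groups hold different strains with 1 library each, and no label links an RwwJ strain to a TyJ strain. Without raw counts, depth limits the low genes: counting error reached 28.5% of the variance for Itga2, 26.1% for Itgae and 24.6% for Lamb3.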
